A study of Mus musculus with 6 samples.

Results

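Reactive gliosis is the response of astrocytes and Müller glia, the radial glia that span the retina, to injury or disease, and 34 genes known from it were followed here in retinas of mice without Wfs1, the gene mutated in Wolfram syndrome 1. The genes were the 34 rows, of 55376 in the deposited count table, whose symbols are on a list of intermediate filaments and inducible genes of reactive glia. The rule uses no measured value, but the list was drawn up with earlier results of these data known. Whole retinas of 3 WT and 3 Wfs1-KO (Wfs1-/-) mice were profiled by RNA-seq at 240 postnatal days. The mutant allele is a deletion of exon 8 of Wfs1, present in every cell of the animal, and no treatment is listed for either group. The labels give the strain of both groups as C57x129, while the methods give it as C57BL/6 J, and the labels name Trizol for the RNA where the methods name a column kit. Total counts per retina lay between 17916885 and 101334381.

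Glial cells that become reactive thicken their cytoskeleton with intermediate filaments of GFAP, vimentin and nestin, and secrete protease inhibitors, carrier proteins and matrix. In the healthy mouse retina GFAP is made mainly by the astrocytes of the nerve fibre layer, and its appearance in Müller glia is a widely used sign of retinal stress. Studies of brain astrocytes sorted the induced genes into those that follow any injury, called pan-reactive, those that follow lipopolysaccharide (an inflammatory stimulus) and those that follow ischaemia. Much of the response is driven by cytokines that act through the receptor gp130 and the transcription factor STAT3, together with C/EBP, NF-kB and AP-1 factors.

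The targeted gene was low in every mutant retina, with 64.9, 61.4 and 69.9 CPM of Wfs1 (the count of a gene relative to the TMM-scaled total of its library) in WT replicates 1, 2 and 3 and 9.63, 0.900 and 11.5 CPM in the mutants. The mutants were not alike at this gene, with replicate 2 at 0.0852 times the mean of the other mutant retinas, and the cause was not tested. Wfs1-KO replicate 2 stood apart from the other 5 retinas across all genes, with a mean correlation to them of 0.918, where the others had 0.962 to 0.971. It also had higher sums for several marker lists. Summed markers of blood were at 480 CPM there and at 12.3 to 41.2 CPM in the others. Those of cornea and surface epithelium were at 48.3 against 0.825 to 2.09 CPM. Krt5, Krt13 and Krt14 of that list were at 11, 10.8 and 21.3 CPM in replicate 2. Krt12, a keratin of cornea, was at 0.284 CPM there, within the WT range of 0.042 to 0.341 CPM. Markers of microglia and macrophages, which include cells of the retina itself, were at 310 against 41.5 to 62.8 CPM. Replicate 2 was the highest retina for 9 of these 10 markers, but P2ry12 was at 5.24, 5.3 and 5.49 CPM in mutant replicates 1, 2 and 3. Rod markers, which define the tissue as retina, summed to 45200 CPM in Wfs1-KO replicate 2 and 60800 to 68700 CPM in the other 5. Because Wfs1-KO replicate 2 stood apart, the fitted differences are given with and without it. The labels give no sex. Counts of the Y-linked gene Ddx3y were 1137 for WT replicate 3 and no more than 2 for the others. Those of Xist, an X-linked RNA of female cells, were 4 for WT replicate 3 and 10583 to 79490 for the others. By these counts the only male retina was in WT, and the part of sex in the differences was not tested.

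Among the genes with enough counts to test, 8 were higher in each mutant retina than in any WT retina: Gfap, the secreted proteins Lcn2, Serpina3n, Timp1 and A2m, the receptor S1pr3, and the calcium-binding proteins S100a6 and Anxa1. Apart from Timp1, which had few counts in WT, their folds ranged from 1.77 for Anxa1 to 16.7 for Lcn2 in all 6 retinas, and from 1.38 for Anxa1 to 2.68 for Lcn2 without Wfs1-KO replicate 2. None of the 5 tested genes of the lipopolysaccharide set and the 7 of the ischaemia set was above the WT range in every mutant retina. Over all tested genes the share was 5.01%, and 0 in lists this small is close to that share. In whole tissue, more or fewer cells of a type and more or less RNA per cell cannot be told apart.

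Of the 34 genes, 30 passed the filter on low counts and were tested with edgeR's quasi-likelihood test, and 4 (Aspg, Tgm1, Cd109 and Slc10a6) had too few counts. None of the 30 had an adjusted p under 0.05 over the 18547 genes tested, where 0.0108% of all genes did. At an unadjusted p under 0.05, 9 of the 30 (30%) were higher in Wfs1-KO, against 2.24% of all tested genes, and 0 were lower, against 0.566%. These 9 were Nes and the 8 named above. The 8 genes without overlap between genotypes were 26.7% of the 30, against 5.01% of all tested genes, and no member was lower without overlap, against 3.94%. The median log2 fold change of the 30 was 0.54, with 0.02 over all tested genes.

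Without Wfs1-KO replicate 2, 32 of the 34 genes could be tested, the common dispersion fell from 0.128 to 0.0322, and 1 gene, Serpina3n, passed the adjusted threshold, where 0.125% of all genes did. At an unadjusted p under 0.05, 8 genes (25%) were higher, against 2.8% of all genes, and 1 was lower, Emp1, against 2.39%. The 8 higher genes were those without overlap in all 6 retinas, a choice that fixes their direction here. Genotypes did not overlap in 9 higher genes (28.1%), against 11.4% of all genes, the 8 and Gpr37, and in 2 lower ones, Amigo2 and Emp1, against 11%. The median log2 fold change of the 30 genes went to 0.07, with 0.00 over all genes.

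With DESeq2, the tool named in the methods, 3 of the genes passed an adjusted p of 0.05 in all 6 retinas, Gfap, Serpina3n and Timp1, against 0.246% of all genes that received an adjusted p. DESeq2 gave no adjusted p for Lcn2 and S100a6 in that fit. Without Wfs1-KO replicate 2 it passed 4, Gfap, Lcn2, Serpina3n and A2m, against 0.475%. Gfap and Serpina3n passed in both DESeq2 fits.

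Promoters of the genes were read from RefSeq (build GRCm38.p6, the assembly of mm10), which gave 39 start sites for 28 of the 34 genes. The 250 bases upstream of each start site were searched on both strands for simple motifs of the factors named above. The motifs were chosen after the values were known. They were TTCNNNGAA for STAT, TTNNGNAA for C/EBP, GGGNNNNNCC for NF-kB and TGANTCA for AP-1. The 5 windows below are shown because their genes carry the comparison: Serpina3n, Lcn2, Timp1 and Gfap were above WT in each mutant retina, and Emp1 was below WT in 2 of 3. Each is written 5′ to 3′ on the strand of the gene, with motif matches in capitals, and ends 1 base before the start site. The positions are chr12:104406458-104406707 (plus strand) for Serpina3n, chr2:32387740-32387989 (minus) for Lcn2, chrX:20869916-20870165 (plus) for Timp1, chr11:102897201-102897450 (minus) for Gfap and chr6:135362681-135362930 (plus) for Emp1, the first of its start sites. For Lcn2, Serpina3n and Emp1 the RefSeq start differs from the gene's start in the count table.
Serpina3n: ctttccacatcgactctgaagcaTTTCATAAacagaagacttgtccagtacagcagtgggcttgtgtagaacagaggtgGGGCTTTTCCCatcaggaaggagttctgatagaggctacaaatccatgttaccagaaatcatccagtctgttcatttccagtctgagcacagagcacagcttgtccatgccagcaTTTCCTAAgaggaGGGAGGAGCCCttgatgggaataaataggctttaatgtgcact
Lcn2: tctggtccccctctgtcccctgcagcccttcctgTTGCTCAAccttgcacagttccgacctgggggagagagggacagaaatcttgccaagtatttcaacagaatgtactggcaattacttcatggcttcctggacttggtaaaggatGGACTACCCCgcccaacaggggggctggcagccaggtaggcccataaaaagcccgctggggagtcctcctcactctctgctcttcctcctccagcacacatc
Timp1: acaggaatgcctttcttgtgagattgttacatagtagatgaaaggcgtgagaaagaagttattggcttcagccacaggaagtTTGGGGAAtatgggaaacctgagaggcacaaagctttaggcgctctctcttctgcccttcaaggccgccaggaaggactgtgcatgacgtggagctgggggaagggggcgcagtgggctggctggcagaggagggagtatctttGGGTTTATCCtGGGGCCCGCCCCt
Gfap: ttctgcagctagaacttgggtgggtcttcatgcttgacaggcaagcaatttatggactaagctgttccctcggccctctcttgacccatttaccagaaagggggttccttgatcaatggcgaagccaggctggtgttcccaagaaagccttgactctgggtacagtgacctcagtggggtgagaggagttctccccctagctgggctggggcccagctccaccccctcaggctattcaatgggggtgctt
Emp1: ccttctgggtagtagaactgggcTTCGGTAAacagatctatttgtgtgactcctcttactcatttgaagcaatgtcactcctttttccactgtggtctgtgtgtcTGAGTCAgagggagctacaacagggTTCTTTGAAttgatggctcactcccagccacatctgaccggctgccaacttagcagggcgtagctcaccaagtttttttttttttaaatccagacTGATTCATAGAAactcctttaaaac
The window of Serpina3n held C/EBP and NF-kB letters, as did those of Lcn2 and Timp1, that of Gfap held none of the 4 motifs, and that of Emp1 held STAT, C/EBP and AP-1 letters. Of the 8 genes above WT in each mutant retina, 7 had a window, and 4 of these held the C/EBP motif (Lcn2, Serpina3n, Timp1 and Anxa1) and 5 the NF-kB motif (the same and S100a6). These short motifs are common, with C/EBP letters in 36.8% and NF-kB letters in 45.8% of all 32851 promoters of this length. STAT letters were in 7.02% and AP-1 letters in 6.75% of all promoters and in 0 of the 7 windows. Among all 28 genes, counted over all 39 windows, 4 held STAT letters in at least 1 window (Tgm1, Sphk1, Emp1 and Sbno2). On the same count 2 held AP-1 (Sphk1 and Emp1), 16 C/EBP and 20 NF-kB. Some genes, among them these 4, had several windows, so these counts cannot be set beside the shares, which are per single promoter. A match of letters is a description of the window and not a measured site.

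**Figure D1:**
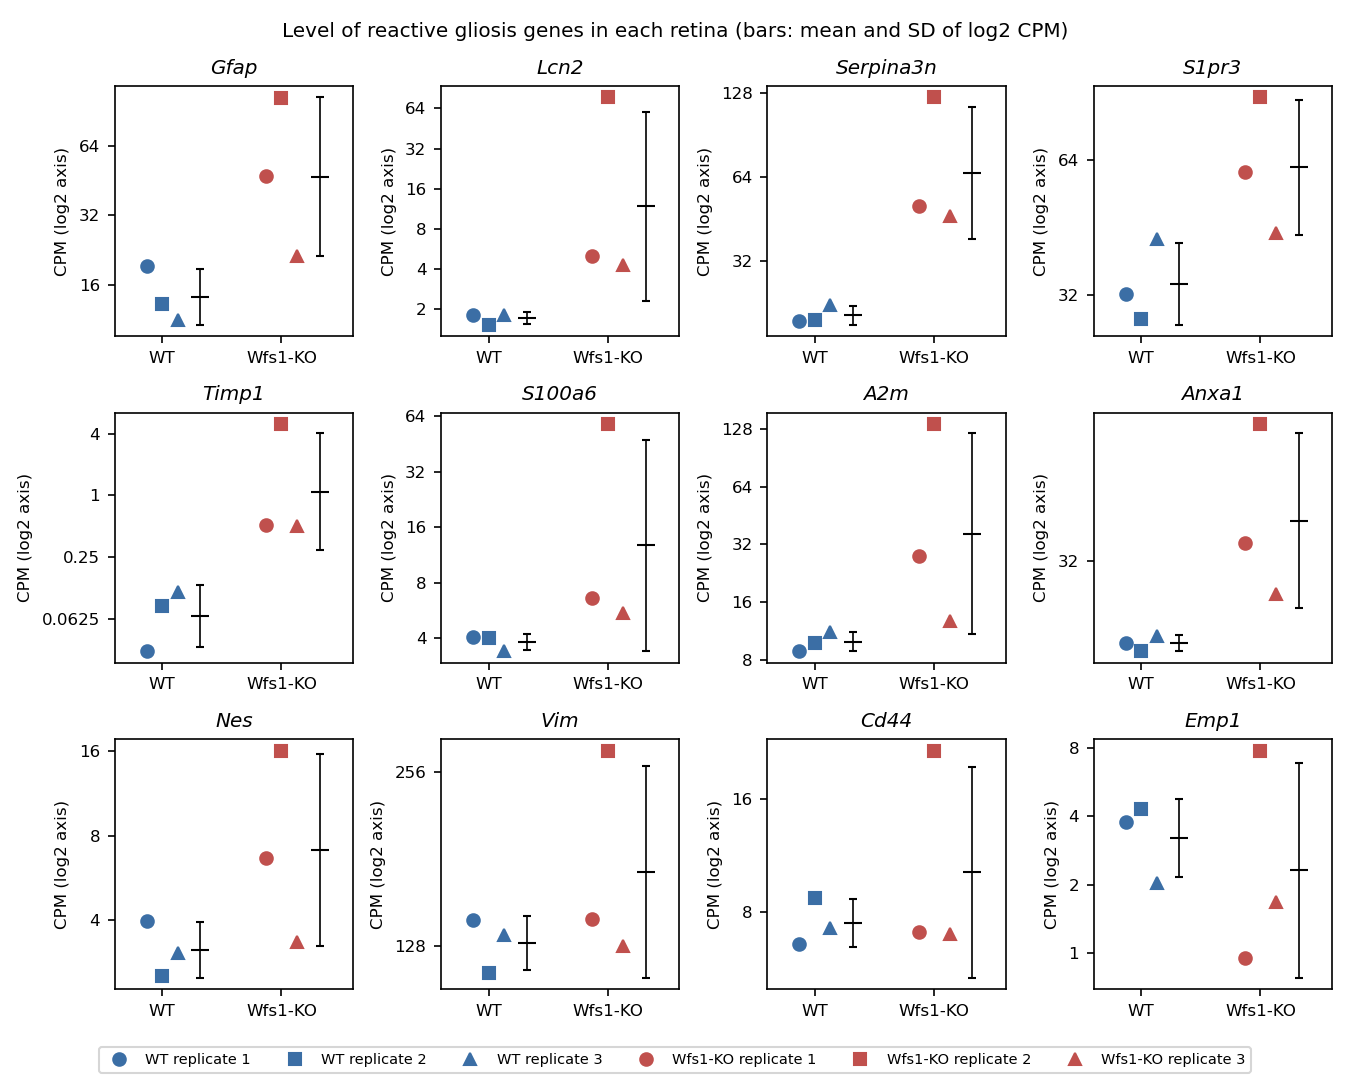
Level of 12 reactive gliosis genes in each of the 6 retinas, in CPM on a log2 axis, with WT in blue and Wfs1-KO in red; the black bars give the mean and SD of log2 CPM per genotype (n = 3). In the upper 8 panels all 3 mutant retinas lie above the WT retinas, while in the lower 4 (Nes, Vim, Cd44, Emp1) the genotypes overlap and Wfs1-KO replicate 2 is the highest of the 6.

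Among the intermediate filaments, Gfap differed most. Gfap (chromosome 11 of mm10, 102887336 to 102897200, minus strand) had 19.2, 13.1 and 11.2 CPM in WT replicates 1, 2 and 3 and 47.5, 104 and 21.2 CPM in the mutants. All mutant retinas were above the WT retinas, but they differed among themselves, replicate 1 having 2.24 times the level of replicate 3. The mean was 57.6 ± 42.4 CPM in Wfs1-KO against 14.5 ± 4.16 CPM in WT (SD, n = 3 for both). The log2 fold change of Gfap, with its standard error (SE) as fitted, was 1.99 (SE 0.55, adjusted p = 0.979 in edgeR's test and 0.0499 in DESeq2), and 1.23 (SE 0.31) without Wfs1-KO replicate 2, where the adjusted p was 0.379 in edgeR's test and 0.006 in DESeq2.

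Nes encodes nestin, a filament of neural progenitors that adult glia can make again, and had 3.99, 2.54 and 3.06 CPM in WT and 6.66, 16.0 and 3.36 CPM in Wfs1-KO. Replicate 3 of the mutants lay within the WT range. Its log2 fold change was 1.43 (SE 0.55, adjusted p = 0.979), and 0.64 (SE 0.31, adjusted p = 0.962) without replicate 2. Vim, the main filament of Müller glia at rest, had 142, 115 and 134 CPM in WT and 143, 279 and 128 CPM in Wfs1-KO. Mutant replicates 1 and 3 were at the WT level, and the log2 fold change of 0.49 (SE 0.31, adjusted p = 0.979) became 0.05 (SE 0.14, adjusted p = 0.986) without replicate 2. The median log2 fold change of the 3 filament genes was 1.43, and 0.64 without that retina.

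Of the other 6 pan-reactive genes, 5 were tested and 4 were higher without overlap between genotypes, against 5.01% of all tested genes. Serpina3n, a secreted inhibitor of serine proteases (chromosome 12, 104406729 to 104414329, plus strand), had 19.6, 19.7 and 22.4 CPM in WT and 50.3, 123 and 46.4 CPM in Wfs1-KO. The WT retinas were close to each other, and even the lowest mutant retina lay well above them. Means were 20.6 ± 1.57 CPM in WT and 73.1 ± 43.0 CPM in Wfs1-KO (SD, n = 3 for both). The log2 fold change of 1.83 (SE 0.39) had an adjusted p of 0.979 in edgeR's test and 0.00427 in DESeq2. Without Wfs1-KO replicate 2 Serpina3n rose 2.35-fold, a log2 fold change of 1.23 (SE 0.14), with an adjusted p of 0.0049 in edgeR's test and 6.12e-11 in DESeq2. Serpina3n belongs to a cluster of close paralogs, so some of its reads may be shared with them.

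Lcn2 encodes lipocalin-2, a secreted carrier of bacterial iron chelators that is strongly induced in inflammation (chromosome 2, 32384633 to 32387797, minus strand). It had 1.82, 1.53 and 1.82 CPM in WT, and in the mutants 77.4 CPM in replicate 2 beside 4.98 and 4.27 CPM in replicates 1 and 3. Replicate 2 was 16.7 times the mean of the other mutant retinas, and these in turn lay above all WT retinas. The 5 neutrophil markers, cells that also make Lcn2, summed to 2.75 CPM in replicate 2 and to 0.681 to 1.12 CPM in the other retinas. S100a8 and S100a9 were at 0.521 and 1.09 CPM in replicate 2 and at most at 0.114 and 0.126 CPM in the others. Csf3r was at 0.995 CPM against 0.568 to 0.994 CPM, and Retnlg and Mmp8 reached at most 0.0947 CPM in any retina. The part of neutrophils was not tested. The log2 fold change of Lcn2 was 4.07 (SE 1.18, adjusted p = 0.979 in edgeR's test). It was 1.42 (SE 0.24) without that retina, a 2.68-fold difference with an adjusted p of 0.0742 in edgeR's test and 0.00124 in DESeq2.

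Timp1 encodes an inhibitor of matrix metalloproteinases (chromosome X, 20870166 to 20874735, plus strand) and was almost silent in WT. The WT retinas held 2, 4 and 2 counts and the mutants 53, 210 and 22, which correspond to 0.0301, 0.0841 and 0.114 CPM and to 0.514, 4.97 and 0.5 CPM. Every mutant retina was above every WT retina, at levels that stayed low. With so few WT counts, the ratio of the summed counts, scaled by library size, was 24.7 (95% exact binomial interval 9.43 to 91.8, on counts halved as read pairs and for counting error alone). It was 8.28 (2.97 to 32) without Wfs1-KO replicate 2. The fitted log2 fold change was 4.86 (SE 1.22, adjusted p = 0.979 in edgeR's test and 0.00271 in DESeq2), and 2.92 (SE 0.72, adjusted p = 0.367 in edgeR's test and 0.337 in DESeq2) without that retina.

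S1pr3, a receptor for sphingosine-1-phosphate (chromosome 13, 51408639 to 51422797, plus strand), had 32.2, 28.4 and 42.7 CPM in WT and 60.1, 88.1 and 44.0 CPM in Wfs1-KO. The gap between the highest WT and the lowest mutant retina was small. Its log2 fold change was 0.90 (SE 0.29, adjusted p = 0.979), and 0.60 (SE 0.19, adjusted p = 0.681) without replicate 2. Cd44, the hyaluronan receptor, was at 6.55, 8.74 and 7.26 CPM in WT and at 7.06, 21.6 and 6.97 CPM in Wfs1-KO, so that the mutant retinas other than replicate 2 lay within the WT range. Its log2 fold change was 0.66 (SE 0.46), and -0.11 (SE 0.20) without replicate 2. Aspg, an asparaginase, had 2 to 14 counts in WT and 6 to 18 in Wfs1-KO and was not tested.

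The genes of the lipopolysaccharide set had a median of -0.05 on the log2 fold scale, and of -0.16 without Wfs1-KO replicate 2. None of the 5 had an unadjusted p under 0.05 in either fit of edgeR's test. Over all tested genes 2.24% were higher and 0.566% lower at that p in 6 retinas, and 2.8% and 2.39% without replicate 2. Fbln5, which encodes the elastic fibre protein fibulin-5, had the largest fitted difference of the set, 0.66 on the log2 scale (SE 0.47), and 0.45 without replicate 2. Its levels of 2.20, 1.85 and 4.54 CPM in WT and 2.43, 5.83 and 5.20 CPM in Wfs1-KO overlapped. Fkbp5, a co-chaperone induced by glucocorticoids, was nearly flat, with 40.1 to 44.6 CPM in WT, 33.1 to 45.1 CPM in Wfs1-KO and a log2 fold change of -0.12 (SE 0.18), or -0.02 without replicate 2.

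Srgn, the proteoglycan serglycin of secretory granules, had a log2 fold change of 0.37 (SE 0.60) that became -0.48 without Wfs1-KO replicate 2, where it stood at 5.0 CPM against 0.863 to 2.33 CPM in the other 5 retinas. Ggta1, an alpha-galactosyltransferase, was below 1 CPM in all retinas and had a log2 fold change of -0.10 (SE 0.50), or -0.48 without replicate 2. Amigo2, an adhesion protein with leucine-rich repeats, was among the most abundant of the genes, with 111, 107 and 102 CPM in WT and 101, 117 and 90.3 CPM in Wfs1-KO. Its log2 fold change was -0.05 (SE 0.17), and -0.16 (SE 0.13, adjusted p = 0.968) without replicate 2, when the mutant levels lay just below the WT levels.

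The ischaemia set had 10 genes, of which 7 were tested, with a median log2 fold change of 0.17 and of -0.19 for the 8 tested without Wfs1-KO replicate 2. Wfs1-KO replicate 2 was the highest retina for all 7. Emp1, a membrane protein of epithelia, had 3.76, 4.29 and 2.04 CPM in WT and 0.951, 7.77 and 1.68 CPM in Wfs1-KO. Mutant replicates 1 and 3 were below all WT retinas and replicate 2 was above them, so the log2 fold change of 0.02 (SE 0.75, adjusted p = 0.998) turned to -1.41 (SE 0.38) when replicate 2 was left out, with an adjusted p of 0.459 in edgeR's test and 0.0559 in DESeq2.

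S100a10, the partner of annexin A2, had 19.5, 15.3 and 12.6 CPM in WT and 12.8, 47.8 and 10.9 CPM in Wfs1-KO, and its log2 fold change went from 0.59 (SE 0.56) to -0.42 (SE 0.21) without replicate 2. The other 5 tested genes had smaller fitted differences than S100a10 in all 6 retinas. They were Clcf1, a cytokine that signals through gp130 (0.17), Ptx3, a soluble pattern recognition protein (0.29), Sphk1, the kinase that makes sphingosine-1-phosphate (0.16), Tm4sf1, a membrane protein of endothelium (0.15), and B3gnt5, a glycolipid glycosyltransferase (0.21), with SEs of 0.27 to 0.44, and without replicate 2 they had log2 fold changes from -0.23 to -0.01. Tgm1, the transglutaminase of cornified epithelia, was at 1.35 CPM in Wfs1-KO replicate 2 and at 0.136 to 0.454 CPM in the other retinas, and was not tested. Cd109, a TGF-beta co-receptor, reached at most 0.227 CPM. Slc10a6, a transporter of steroid sulfates, had 0 counts in each WT retina and 6, 4 and 2 counts in the mutants, too few for a test.

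The last 10 genes are inducible genes of glia outside these sets. A2m, a broad protease inhibitor (chromosome 6, 121636228 to 121679227, plus strand), had 8.94, 9.77 and 11.2 CPM in WT and 27.7, 136 and 12.8 CPM in Wfs1-KO. The lowest mutant retina was slightly above the highest WT retina, and mutant replicate 1 had 2.16 times the level of replicate 3. The log2 fold change was 2.56 (SE 0.81, adjusted p = 0.979 in edgeR's test and 0.0523 in DESeq2), and 1.03 (SE 0.27, adjusted p = 0.452 in edgeR's test and 0.0346 in DESeq2) without replicate 2.

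S100a6, a calcium-binding protein (chromosome 3, 90612882 to 90614414, plus strand), was at 4.08, 4.03 and 3.41 CPM in WT and at 6.58, 57.9 and 5.47 CPM in Wfs1-KO. Most of its fitted difference came with replicate 2, since the log2 fold change of 2.59 (SE 0.91, adjusted p = 0.979) became 0.64 (SE 0.21, adjusted p = 0.713) without it. Anxa1, the anti-inflammatory phospholipid-binding protein annexin A1 (chromosome 19, 20373428 to 20390944, minus strand), had 22.6, 21.8 and 23.3 CPM in WT and 34.5, 57.4 and 27.8 CPM in Wfs1-KO. Here the WT retinas were tightly grouped, with an SD of 0.756 CPM, and the log2 fold change was 0.82 (SE 0.28, adjusted p = 0.979), and 0.46 (SE 0.15, adjusted p = 0.681) without replicate 2.

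The C/EBP genes of this group were highest in Wfs1-KO replicate 2. Cebpd was at 10.7, 5.63 and 11 CPM in WT and at 13, 62.0 and 9.81 CPM in Wfs1-KO, with a log2 fold change of 1.63 (SE 0.71) that became 0.33 without that retina. Cebpb was at 3.19 to 4.97 CPM in WT and at 3.97, 17.3 and 3.38 CPM in Wfs1-KO, and its log2 fold change of 1.03 (SE 0.63) became -0.13. Both encode transcription factors of the acute-phase response, and in neither did the other mutant retinas lie above the WT range as a pair. Sbno2, a transcriptional co-regulator induced by cytokines, had a log2 fold change of 0.01 (SE 0.23), or 0.17 without that retina. Counts of Cebpd are shared in position with an antisense gene over 15% of its exon length, and the strand setting of the counting is not given in the sources used here.

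Tgm2, tissue transglutaminase, had 7.08 to 8.06 CPM in WT and 8.64, 14.1 and 6.15 CPM in Wfs1-KO, with a log2 fold change of 0.34 (SE 0.32) that became -0.04 without replicate 2, and 22.6% of its exon length overlaps genes on the other strand. Gpr37 and Gpr37l1 encode a pair of related receptors of glia and differed widely in level. Gpr37 had 200, 224 and 227 CPM in WT and 252, 178 and 254 CPM in Wfs1-KO, where replicate 2 was the lowest of the 6 retinas and the other mutant retinas were the highest. Its log2 fold change was 0.07 (SE 0.20), and 0.22 (SE 0.13, adjusted p = 0.966) without replicate 2. Gpr37l1 was at 0.841 to 1.82 CPM in WT and 1.32 to 2.94 CPM in Wfs1-KO, a log2 fold change of 0.69 (SE 0.44), or 0.40 without replicate 2. Tnc, the matrix glycoprotein tenascin-C, was at 17.6 to 28.9 CPM in WT and 17.5 to 23.6 CPM in Wfs1-KO, a log2 fold change of -0.04 (SE 0.25), or 0.09 without replicate 2.

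**Figure D2:**
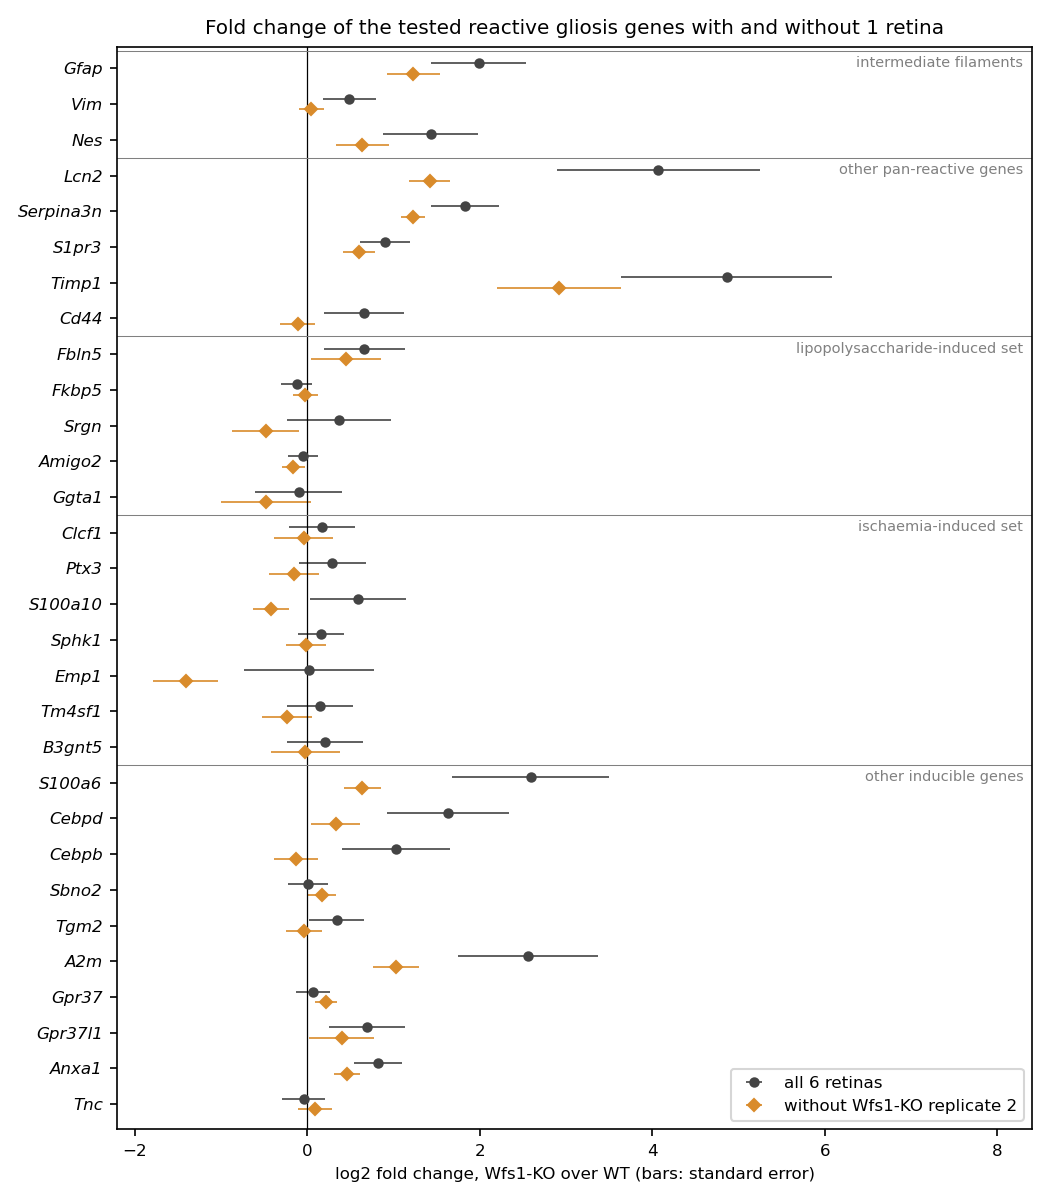
Log2 fold change (Wfs1-KO over WT) of the 30 tested genes with its standard error, in all 6 retinas (black circles) and without Wfs1-KO replicate 2 (orange diamonds), grouped by role. Without that retina Lcn2 goes from 4.07 to 1.42, S100a6 from 2.59 to 0.64 and Emp1 from 0.02 to -1.41.

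Wfs1-KO replicate 2 was the highest of the 6 retinas for 26 of the 30 tested genes (86.7%), against 38.4% of all tested genes. It was more than 2 times the mean of the other mutant retinas in 15 of them (50%), against 17.6% of all tested genes, and the median ratio was 1.98 with 0.999 over all genes. The summed level of the 34 genes was 729, 692 and 749 CPM in WT and 895, 1520 and 792 CPM in Wfs1-KO. Replicates 1 and 3 of the mutants thus also lay above the WT sums, by a smaller margin. The sum is weighted to abundant genes such as Gpr37, at 252 and 254 CPM in these mutant retinas and 200 to 227 CPM in WT. It does not show a general rise. Without replicate 2, 17 of the 32 tested genes had a log2 fold change above 0, with 9222 of 18547 over all genes. Between mutant replicates 1 and 3, replicate 1 was the higher, with a median ratio of 1.17 over the 30 genes and 0.997 over all genes. The part that blood, surface epithelium and macrophage RNA in replicate 2 had in its high values was not tested. Krt14, a keratin of surface epithelium, had 21.3 CPM in replicate 2 and 0 in each WT retina. In the other mutant retinas blood markers summed to 22.7 and 20.1 CPM, within the WT range of 12.3 to 41.2 CPM. Microglia and macrophage markers summed there to 62.8 and 41.5 CPM, against 47.2 to 51.5 CPM in WT, and surface epithelium markers to 0.825 and 2.09 CPM, against 1.11 to 1.79 CPM. Pigment epithelium markers summed to 71.9 CPM in replicate 2 and to 16.4 and 13.3 CPM in the other mutant retinas, below the WT range of 27.3 to 45.2 CPM. Without replicate 2, 3 of these 7 markers passed as lower in DESeq2, where 0.475% of all genes passed in either direction. Lrat also passed in edgeR's test (log2 fold change -1.99, adjusted p = 0.0467). Lens markers were low throughout, at 1.07 to 1.28 CPM in WT and 1.77 to 2.68 CPM in Wfs1-KO. The part of these cells and tissues in the values of replicates 1 and 3 was not tested either.

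**Figure D3:**
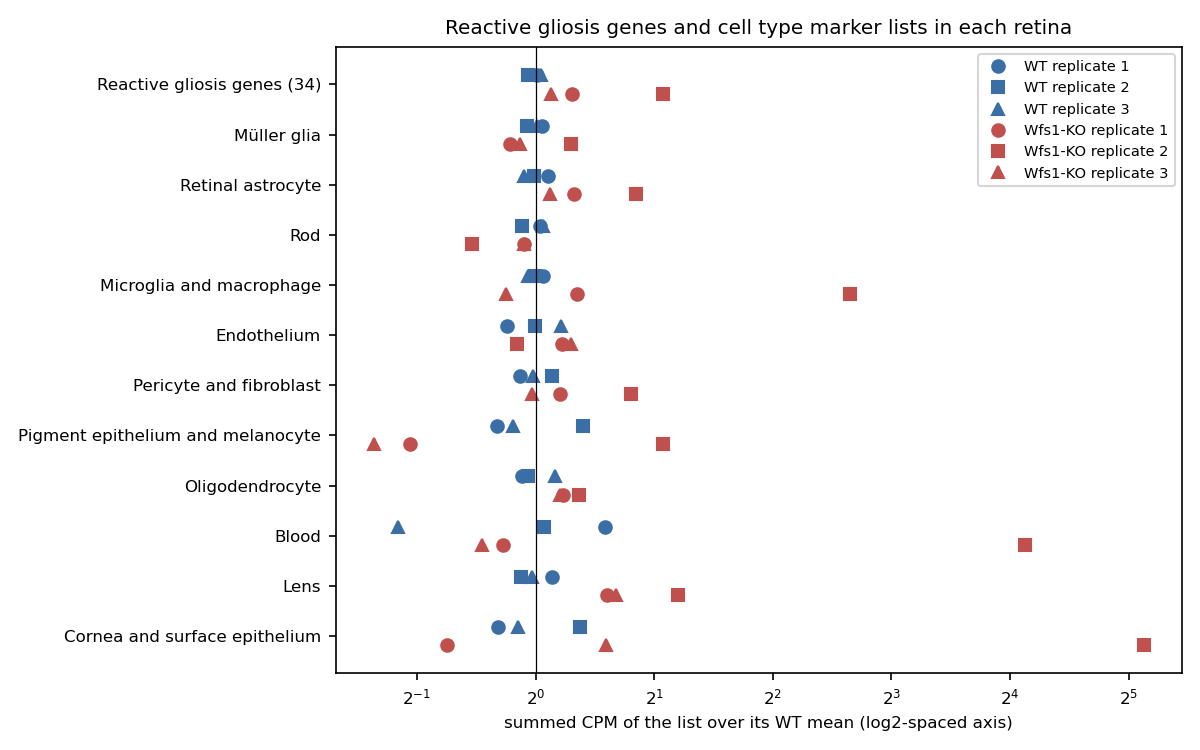
Summed CPM of the 34 reactive gliosis genes and of cell type marker lists in each retina, divided by the WT mean of the list, on a log2-spaced axis. Wfs1-KO replicate 2 (red square) lies far to the right for blood, for cornea and surface epithelium, and for microglia and macrophages, while the other mutant retinas lie within 2-fold of the WT mean for these lists.

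The markers of the glia themselves did not move as one. The 10 Müller glia markers summed to 6640, 6050 and 6440 CPM in WT and 5480, 7850 and 5840 CPM in Wfs1-KO, and their median log2 fold change was -0.11. The high sum of replicate 2 came with Apoe, at 3630 CPM there and at 617 to 972 CPM in the other retinas. Replicate 2 was the lowest of the 6 retinas for 6 of the 10 markers and the highest for 3. Glul, the glutamine synthetase of Müller glia, and Car14, a carbonic anhydrase, were lower in each mutant retina than in any WT retina, with log2 fold changes of -0.42 and -0.59 (-0.32 and -0.31 without replicate 2). Crym was higher in each, with 1.00 (0.47 without it). The 4 retinal astrocyte markers summed to 29.6, 27.2 and 25.7 CPM in WT and 34.4, 49.6 and 30.0 CPM in Wfs1-KO. Pax2, the transcription factor of these astrocytes, was below 1.5 CPM in every retina and higher in each mutant (log2 fold change 1.05, or 0.80 without replicate 2), and Igfbp3 was lower in each (log2 fold change -0.97, or -1.10 without it). None of the 14 markers had an adjusted p under 0.05 in edgeR's test. At an unadjusted p under 0.05, 2 were higher and 2 lower, against 2.24% and 0.566% of all tested genes. Over all tested genes 5.01% were higher and 3.94% lower without overlap between genotypes.

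Levels of different genes can be compared per exon length, as CPM per kilobase. On this scale Vim led in WT with 59.5, followed by Gpr37 with 35.8, Amigo2 with 33.7 and S100a10 with 19.7, while Gfap stood at 3.56 and Lcn2 at 1.89. In Wfs1-KO the means were 83.5 for Vim, 37.6 for Gpr37, 35.4 for Serpina3n, 32.5 for Amigo2, 31.6 for Lcn2, 29.8 for S100a10 and 28.8 for S100a6, with 14.2 for Gfap further down. The order of these mutant means depended on replicate 2, as the levels from the other mutant retinas show in the plot of levels per length. Timp1, at 0.0855 in WT, was among the lowest in that genotype.

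**Figure D4:**
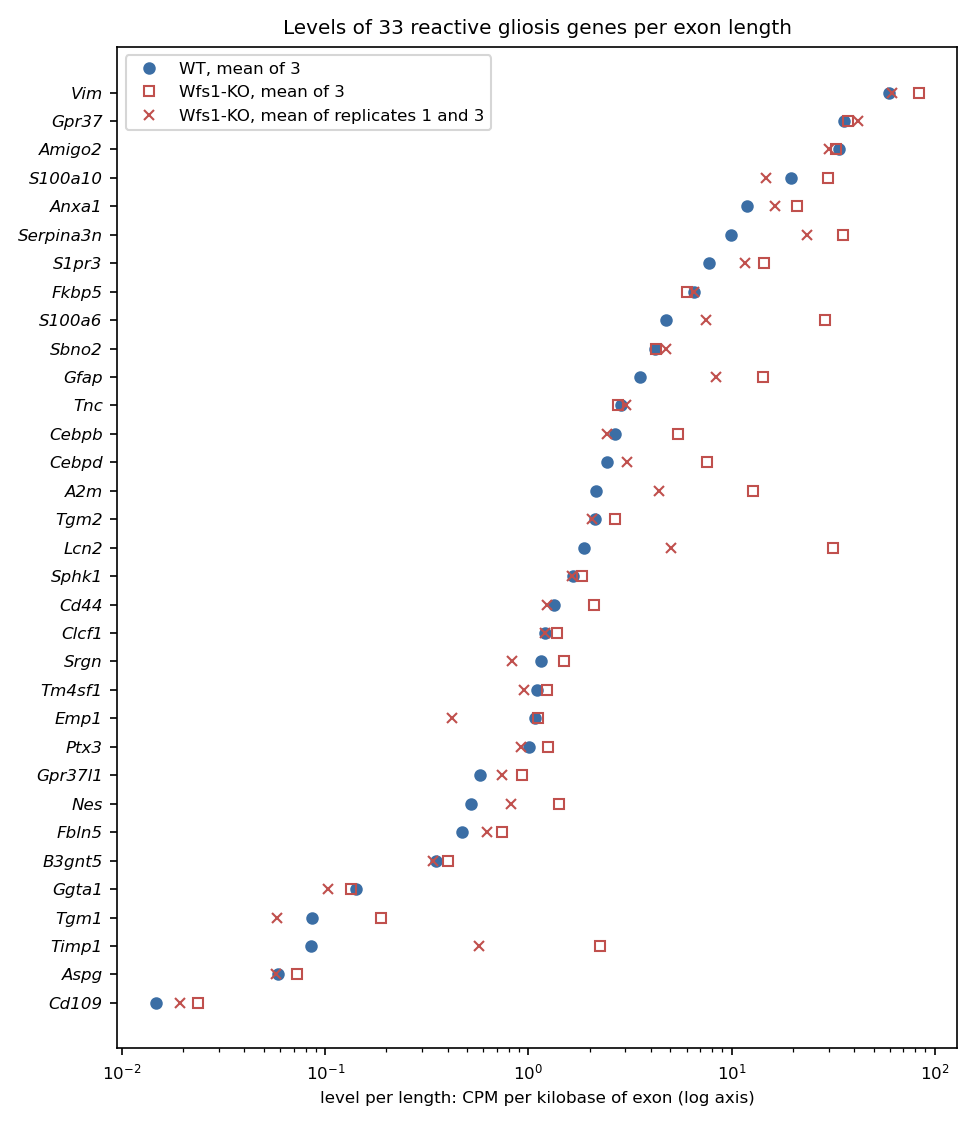
Level per exon length (CPM per kilobase, log axis) of the 33 genes with counts in WT, ordered by the WT mean (n = 3, blue), with the Wfs1-KO mean of 3 retinas (open squares) and of replicates 1 and 3 (crosses). Vim is at the top with 59.5 in WT, and for Lcn2, S100a6 and A2m the crosses lie well to the left of the squares.

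Other genes of the same reactive sets, 13 in number and all tested, gave the following. None passed the adjusted threshold in edgeR's test. At an unadjusted p under 0.05, 4 were higher and 0 lower, against 2.24% and 0.566% of all tested genes. Their median log2 fold change was 0.71 (0.23 without Wfs1-KO replicate 2, when 1 was higher, against 2.8% of all genes). Genotypes did not overlap in 2 higher genes, Steap4 and Cd14, against 5.01% of all tested genes. Steap4, a metalloreductase of the pan-reactive set, had 2.09, 1.98 and 2.27 CPM in WT and 7.88, 19.0 and 3.95 CPM in Wfs1-KO, without overlap. Its log2 fold change was 2.28 (SE 0.55, adjusted p = 0.979 in edgeR's test and 0.00925 in DESeq2), and 1.5 without that retina. Osmr, the oncostatin M receptor (0.95), Serping1, the C1 inhibitor of complement (2.06), and Psmb8, an immunoproteasome subunit (1.91), were the other 3, and in each the genotypes overlapped and the log2 fold change was 0.44 to 0.52 without that retina.

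Of 11 genes of the gp130 and STAT3 pathway, 9 were tested, with a median log2 fold change of 0.03. At an unadjusted p under 0.05 in edgeR's test, 2 were higher and 0 lower, against 2.24% and 0.566% of all tested genes. Stat3 had 60.3, 64.5 and 66.9 CPM in WT and 81.4, 99.5 and 74.3 CPM in Wfs1-KO. Socs3, the feedback inhibitor that STAT3 induces, had 5.24, 4.58 and 5.11 CPM in WT and 6.36, 14.8 and 6.86 CPM in Wfs1-KO. In both genes all mutant retinas were above the WT retinas, with log2 fold changes of 0.41 and 0.91 (adjusted p = 0.979 for both in edgeR's test), and of 0.28 and 0.40 without replicate 2. The ligand genes Il6 and Osm had too few counts to test.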

How the data were processed

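Libraries of whole retina were made with an Illumina TruSeq RNA kit. Per the labels the authors used Trimmomatic 0.39, STAR 2.5.3a and featureCounts 1.6.4 with mm10, and the deposited values are raw counts per gene, with replicates kept apart. The strand setting, and whether read mates were counted singly, are not given in the sources used here; 66.9% to 75.6% of counts from 1 to 50 were even. Columns were assigned by name, with a letter for genotype and a digit for replicate, and 2 of 8 library columns matched no listed sample and were not used. Counts of Wfs1 are the check on that reading.

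All genes were fitted in R 4.3.3 with edgeR 4.0.16 (TMM factors, its default filter on low counts, quasi-likelihood test, Benjamini-Hochberg adjustment over 18547 genes), and again with limma 3.58.1 (voom) and DESeq2 1.42.0. CPM were computed with TMM factors. The standard error is the size of the log2 fold change divided by the square root of F. The labels do not say more of the replicates than their number, so p-values measure the spread between these samples. A count of 3 corresponds to 0.0291 to 0.170 CPM by library, and intervals cover counting error alone. The fits were tested on simulated data with known changes, where the share of false calls was within the nominal rate for edgeR and limma and above it for DESeq2. The simulated libraries had a common dispersion for all genes and no outlying retina, so these shares need not hold for the real data. No pair of libraries of the same genotype agreed within sampling noise, and pairs across genotypes were not compared.

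The genes, lists and roles were chosen with earlier results of these data known. All 34 genes are named. Values in every retina are given for the filament genes, for genes whose genotypes do not overlap and for those with an unadjusted p under 0.05 in the fits with or without Wfs1-KO replicate 2, and others were added after their values were seen. Of other reactive set genes and of gp130 and STAT3 genes, those with an unadjusted p under 0.05 are named, and Cd14 because its genotypes did not overlap. Alternatives were other normalizations, no filter on low counts, removal of a trend with gene length, a replicate block, other tools and leaving out each retina.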

Additional observations from a re-analysis of the deposited data

How the results depend on the processing

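Over 14 alternatives, 420 log2 fold changes of the 30 tested genes were recomputed. Of these, 363 kept their direction and, where there was an adjusted p, their side of the threshold. Another 8 newly passed it and 49, in 16 genes, changed sign. Removal of the trend on gene length gave no adjusted p. Genes chosen for genotypes that do not overlap cannot change direction when a retina is left out, so their sign says nothing of stability there. Lcn2 and S100a6 had no adjusted p in DESeq2 with 6 retinas.

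The count of genes with an adjusted p under 0.05, 0 in edgeR's test, was 3 with DESeq2, 4 with DESeq2 without Wfs1-KO replicate 2, and 0 to 1 when each retina was left out in turn. The count higher at an unadjusted p under 0.05, 9, was 5 with limma-voom and 4 to 11 when a retina was left out, with 4 both without WT replicate 1 and without WT replicate 2. The count lower at that p, 0, was 1 with DESeq2 without Wfs1-KO replicate 2, and 0 to 1 when a retina was left out. Genes higher without overlap, 8, numbered 8 to 13, the latter without Wfs1-KO replicate 3. Leaving out a retina keeps or raises this count by construction, so it says nothing of stability. Over all genes the share went from 5.01% to 11.4% without Wfs1-KO replicate 2. The median log2 fold change of 0.54 was 0.07 with DESeq2 without Wfs1-KO replicate 2, 0.07 to 0.74 when a retina was left out, and 0.30 with the trend on gene length removed (Spearman correlation of log2 fold change with exon length -0.27 over 18547 genes, which are not independent, and 0.20 without that retina). The cause was not tested for any of these.

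The groups share replicate numbers, but same-numbered retinas did not deviate together (correlations of -0.234, -0.111 and 0.0784 for numbers 1, 2 and 3), and 0 of 6 retinas correlated best with its own number. With a replicate block, 5 genes were higher at an unadjusted p under 0.05, Emp1 had a log2 fold change of -0.45 and Sbno2 of 0.00.

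The other changes of sign were in genes that did not pass the test. DESeq2 gave 0.00 for Sbno2. Limma-voom gave -0.03 for Srgn, -0.80 for Emp1 and 0.03 for Tnc. With the trend on gene length removed Clcf1 had -0.05, Emp1 -0.06 and Sbno2 0.00, just below 0. Without a filter on low counts Emp1 had -0.04 and Sbno2 -0.01. DESeq2 without Wfs1-KO replicate 2 gave -0.11 for Cd44, -0.48 for Srgn, -0.04 for Clcf1, -0.15 for Ptx3, -0.43 for S100a10, -0.01 for Sphk1, -1.41 for Emp1, -0.23 for Tm4sf1, -0.03 for B3gnt5, -0.13 for Cebpb, -0.04 for Tgm2 and 0.09 for Tnc. Leaving out each retina in turn gave -0.11 to 0.92 for Cd44, -0.48 to 0.78 for Srgn, -0.16 to 0.03 for Amigo2, -0.48 to 0.15 for Ggta1, -0.08 to 0.50 for Clcf1, -0.15 to 0.50 for Ptx3, -0.42 to 0.93 for S100a10, -0.03 to 0.27 for Sphk1, -1.41 to 0.47 for Emp1, -0.23 to 0.34 for Tm4sf1, -0.13 to 0.45 for B3gnt5, -0.13 to 1.40 for Cebpb, -0.12 to 0.17 for Sbno2, -0.04 to 0.57 for Tgm2, -0.01 to 0.22 for Gpr37 and -0.18 to 0.18 for Tnc.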
